A study of Homo sapiens with 2 samples.

Results

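The genes described here are 7 survival genes of the cell death machinery: MCL1, BCL2, BCL2L1, BCL2L2 and BCL2A1 of the BCL2 family, the caspase inhibitor gene XIAP, and CFLAR, which encodes the caspase-8 regulator cFLIP. They were taken by name from the 58884 genes in the count files, after Ensembl IDs had been matched to symbols, and all 7 were found. The RNA came from T24/R cells, a human bladder line with an epithelial, adherent growth form per the labels, kept in serum-containing medium for 6 h with the solvent DMSO or with 1600 nM THZ1. THZ1 is a covalent inhibitor of CDK7 that also acts on CDK12 and CDK13, kinases that act on RNA polymerase II. Each group was 1 library of 1 line, so no replicate error could be measured, no test was made, and every interval given is a 95% interval for counting error only.

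Cells commit to the mitochondrial route of apoptosis when BAX or BAK1 permeabilises the outer mitochondrial membrane and cytochrome c is released. MCL1, BCL2, BCL-XL (from BCL2L1), BCL-w (from BCL2L2) and BFL1 (from BCL2A1) hold these effectors and the BH3-only activators in check, whereas XIAP binds active caspases and cFLIP limits caspase-8 activation at death receptors. MCL1 mRNA and protein turn over quickly, which is why MCL1 is often followed when transcription is inhibited.

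The libraries held 18445831 counts for DMSO and 18313827 for THZ1. The mitochondrially encoded mRNAs took 6.598% of the counts in DMSO and 14.9% in THZ1, so what the libraries are scaled to matters for every gene below. Of 15 epithelial and urothelial markers, 7 had more than 3 counts in DMSO and 8 in THZ1. They were led by the keratin gene KRT18 (696 and 494 counts), while the uroplakin genes UPK1B and UPK3A were at 0 in both libraries and CDH1 and EPCAM had at most 3 counts. The 11 leukocyte markers summed to 10 counts in each library and the 4 endothelial markers to 3 and 4.

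Promoter windows of 300 bases, from 250 before to 50 after an annotated start, were available from RefSeq (GRCh38.p14) for 5 of the 7 genes (BCL2, BCL2L1, BCL2A1, XIAP and CFLAR). The windows of the pair with the largest decrease (BCL2L1 and BCL2) and of the gene without a count (BCL2A1) are shown because they differ in CpG content. They are written 5′ to 3′ on the gene's strand, and capitals mark each CpG dinucleotide. The BCL2L1 window lies at chr20:31723914-31724213 (minus strand), that of BCL2 at chr18:63319720-63320019 (minus strand) and that of BCL2A1 at chr15:79971147-79971446 (minus strand).
BCL2L1: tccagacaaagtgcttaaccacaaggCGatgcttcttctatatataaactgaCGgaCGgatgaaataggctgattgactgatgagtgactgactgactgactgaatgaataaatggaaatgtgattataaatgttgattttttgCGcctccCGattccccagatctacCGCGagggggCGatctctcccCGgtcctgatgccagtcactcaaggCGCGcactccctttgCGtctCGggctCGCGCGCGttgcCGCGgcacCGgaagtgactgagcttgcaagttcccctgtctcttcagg
BCL2: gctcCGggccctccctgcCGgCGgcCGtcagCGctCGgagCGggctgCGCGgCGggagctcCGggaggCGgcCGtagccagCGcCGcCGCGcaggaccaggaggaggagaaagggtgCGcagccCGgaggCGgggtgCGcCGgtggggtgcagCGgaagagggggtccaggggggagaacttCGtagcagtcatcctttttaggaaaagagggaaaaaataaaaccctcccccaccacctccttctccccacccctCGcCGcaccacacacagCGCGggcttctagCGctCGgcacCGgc
BCL2A1: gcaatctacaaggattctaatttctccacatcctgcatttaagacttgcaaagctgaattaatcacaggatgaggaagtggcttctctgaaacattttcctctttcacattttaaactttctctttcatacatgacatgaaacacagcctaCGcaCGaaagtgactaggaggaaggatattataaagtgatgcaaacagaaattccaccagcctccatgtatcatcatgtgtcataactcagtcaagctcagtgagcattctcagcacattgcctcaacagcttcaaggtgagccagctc

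The BCL2 window held 31 CpG dinucleotides and the BCL2L1 window 20, whereas that of BCL2A1 held 2, beside a median of 14 over all 35116 windows. The second BCL2L1 window held 16, the 3 XIAP windows 10, 27 and 17, and the 4 CFLAR windows 21, 0, 1 and 22. The letters TATAAA, searched on both strands, were found 2 times in the BCL2L1 window shown and 1 time in that of BCL2A1, and in 0 of the other 9 windows of these genes, against 11.5% of all windows. The letters GGGCGG, searched likewise, were present in 45.0% of all windows and in none of the 3 windows shown. They were present in the second BCL2L1 window, in the XIAP windows with 10 and 17 CpG and in the CFLAR windows with 21 and 22. A match of letters says nothing about binding.

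BCL2A1 (ENSG00000140379, chromosome 15 from 79960889 to 79971446) had 0 counts in both libraries. At this depth 0 counts allow up to 3 counts, or 0.136 CPM (counts relative to library size) in DMSO and 0.196 CPM in THZ1 on the scale of the trimmed mean of M-values (TMM). BFL1 is best known from blood cells, and the leukocyte markers in these libraries were likewise near 0. Coding genes with CpG-poor windows (0 to 4 CpG in the richest window) had 0 counts in both libraries in 62.9% of 2127 cases, against 11.5% of 10931 genes with 15 or more. Whether cell type or CpG content bears on the 0 counts of BCL2A1 was not tested. The other 6 genes all passed the minimum of 30 counts in at least 1 library.

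Among the survival genes named at the start, MCL1 was by far the most abundant in solvent-treated cells. Levels between genes are compared as TPM, that is, counts divided by the total exonic length of the gene in GENCODE 29 and scaled to the same sum in each library. MCL1 stood at 283 TPM in DMSO (275.8 to 289.6), above 97.1% of the tested coding genes. BCL2L1 followed at 80.6 TPM (76.4 to 84.9) and XIAP at 58.0 TPM (55.8 to 60.2). The lowest levels were those of BCL2L2 at 16.1 TPM (14.5 to 17.9), CFLAR at 12.7 TPM (12.0 to 13.3) and BCL2 at 11.5 TPM (10.7 to 12.4). The intervals of CFLAR and BCL2 overlapped, so their order was not resolved, while the other neighbours in the order were separated by more than counting error. CFLAR has 25 annotated transcripts and a long combined exonic length of 22529 bases. With the length of 1 representative transcript instead, CFLAR was at 14.5, BCL2L2 at 14.01 and BCL2 at 13.6 TPM, and the order of these 3 genes changed. The ranking does not extend to survival genes outside this set, which are described further below. By exonic length, BIRC2 stood above MCL1, at 415.6 TPM in DMSO and 124.6 TPM in THZ1. In DMSO, BIRC3 (158.7 TPM) and BIRC5 (105.7 TPM) lay between MCL1 and BCL2L1, and BIRC6 (46.7 TPM) lay below BCL2L1.

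**Figure D1:**
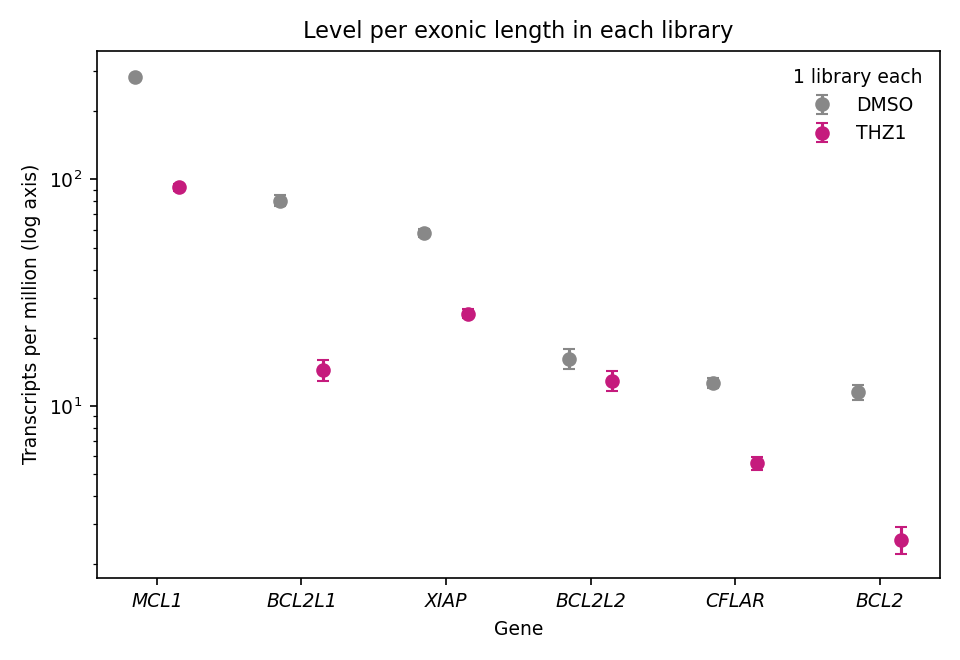
Level of each detected survival gene in TPM (log axis) in the DMSO and the THZ1 library, with 95% Poisson counting intervals. Of the genes drawn, MCL1 is the highest in both libraries, and BCL2L1, at 80.6 in DMSO, stands beside BCL2L2 in THZ1. BCL2A1 (0 counts) is not drawn.

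In THZ1 the order by TPM was MCL1 (92.3), XIAP (25.5), BCL2L1 (14.4, 12.9 to 16.0), BCL2L2 (12.9, 11.7 to 14.3), CFLAR (5.58) and BCL2 (2.56). BCL2L1, which had been the second highest gene of this set in DMSO, was no longer separated from BCL2L2 by more than counting error. TPM values depend on everything else in a library and are used here only to rank genes within it. Changes between libraries are given as the log2 ratio of THZ1 over DMSO after TMM scaling, with 0.5 added to each count, and a gene was called when the ratio was at least 2-fold and its interval excluded 1.

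Of the 6 survival genes with enough counts, 2 were lower by this rule (BCL2L1 and BCL2), 0 were higher and 4 were neither. Among all 12457 tested genes 21.3% were lower and 9.7% higher, and 2 of 6 is too small a number to set apart from that background. The median log2 ratio of the 6 was −0.43, beside −0.03 for all tested genes. They spanned −1.52 to 0.65, so the survival genes did not move as one. In these bulk samples, less RNA per cell and fewer cells of a kind cannot be told apart.

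BCL2L1, the gene of BCL-XL, had the lowest ratio of the 6. It had 1400 counts in DMSO and 339 in THZ1, or 63.5 and 22.1 CPM. THZ1 was the lower library by 2.87-fold, with a log2 ratio of −1.52 (−1.70 to −1.35), and 12.9% of all tested genes had a lower ratio. BCL2L1 (ENSG00000171552) lies on chromosome 20 from 31664452 to 31723989, and the antisense gene ABALON covers 43.0% of its exonic length on the other strand. ABALON had 44 and 27 counts. The strand setting of the counting is not given in the sources used here, so reads in the shared part could be lost or assigned to either gene.

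BCL2, the founding member of the family, was the other gene past 2-fold. It had 709 counts in DMSO and 214 in THZ1 (32.2 and 13.97 CPM). The level in THZ1 was 2.298-fold below that in DMSO, and the log2 ratio was −1.20 (−1.43 to −0.98). The upper bound of this interval lay just within 2-fold, unlike that of BCL2L1. BCL2 (ENSG00000171791) spans 196783 bases of chromosome 18 from 63123346 to 63320128, more than 92.5% of the tested coding genes. The nearest gene upstream on the same strand, KDSR, has its 3′ end 7598 bases from the start of BCL2 and had a ratio of −0.22 (1676 and 1003 counts).

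MCL1 was lower in THZ1 by less than 2-fold. Its counts were 6476 in DMSO and 2872 in THZ1, or 293.7 and 187 CPM. The log2 ratio of −0.65 (−0.71 to −0.58) corresponds to 1.57-fold, and 29.5% of tested genes had a lower ratio. The interval is narrow because MCL1 was read deeply, and it excluded both 0 and a 2-fold decrease on this scaling. MCL1 (ENSG00000143384, chromosome 1 from 150574551 to 150579738) is a compact gene of 5188 bases, and only 7.56% of the tested coding genes are shorter.

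BCL2L2, which encodes BCL-w, had the only ratio above 0 on the TMM scaling. It had 354 counts in DMSO and 386 in THZ1 (16.1 and 25.2 CPM), a log2 ratio of 0.65 (0.44 to 0.86) or 1.57-fold, within 2-fold. The ratio was 0.14 when the libraries were scaled to total counts and −1.04 on the mitochondrial mRNAs, so its sign depends on the scaling. BCL2L2 (ENSG00000129473, chromosome 14 from 23298790 to 23311759) shares 19.4% of its exonic bases with the read-through gene BCL2L2-PABPN1 on the same strand, which had 13 counts in each library, and 4.9% with PPP1R3E on the other. Reads in these parts cannot be given to 1 gene, so the value of BCL2L2 is uncertain.

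XIAP and CFLAR, which act on caspases rather than on mitochondria, had the ratios nearest to 0 on the TMM scaling. XIAP (ENSG00000101966, chromosome X from 123859724 to 123913979) had 2742 and 1641 counts, a log2 ratio of −0.22 (−0.30 to −0.13). CFLAR (ENSG00000003402, chromosome 2 from 201116104 to 201176687) had 1494 and 895 counts, a log2 ratio of −0.21 (−0.34 to −0.09). Both intervals lay below 0 and far from 2-fold on TMM, but with the upper quartile as reference the ratios were 0.22 for each. Processed pseudogenes of XIAP had at most 4 counts, so few reads were counted under the names of these copies. The antisense gene CFLAR-AS1, which overlaps CFLAR on the other strand, had 24 and 17 counts.

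**Figure D2:**
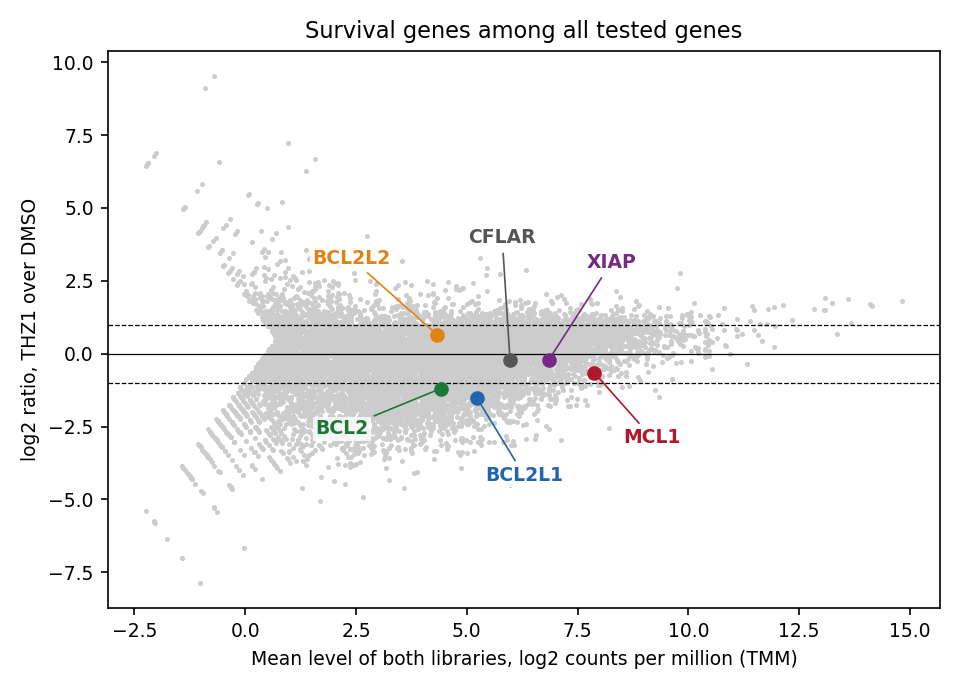
Each grey point is 1 of 12457 tested genes, with the mean level of both libraries on the x axis (log2 CPM) and the log2 ratio of THZ1 over DMSO on the y axis; dashed lines mark 2-fold. BCL2L1 (−1.52) and BCL2 (−1.20) lie below the lower dashed line and the other 4 coloured survival genes between the lines.

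The scaling moved all 6 ratios by the same amount and left their order as it was. Relative to TMM the shift was −0.51 with total counts, −1.69 with the mitochondrially encoded mRNAs, −0.11 with DESeq2 size factors and 0.43 with the upper quartile. With total counts MCL1 joined BCL2L1 and BCL2 (−1.16, −2.03 and −1.72), which gave 3 lower genes, when 34.2% of all tested genes were lower and 2.95% higher. On the mitochondrial reference all 6 were lower, from −1.04 for BCL2L2 to −3.21 for BCL2L1, when 80.3% of all tested genes were lower and 0.706% higher. With the upper quartile only BCL2L1 was lower (−1.08) and BCL2L2 was higher (1.08), when 14.1% of all tested genes were lower and 24.4% higher. The counts do not tell how much RNA a cell held, so none of these references is known to be constant. BCL2L1 was past 2-fold under each of these scalings.

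**Figure D3:**
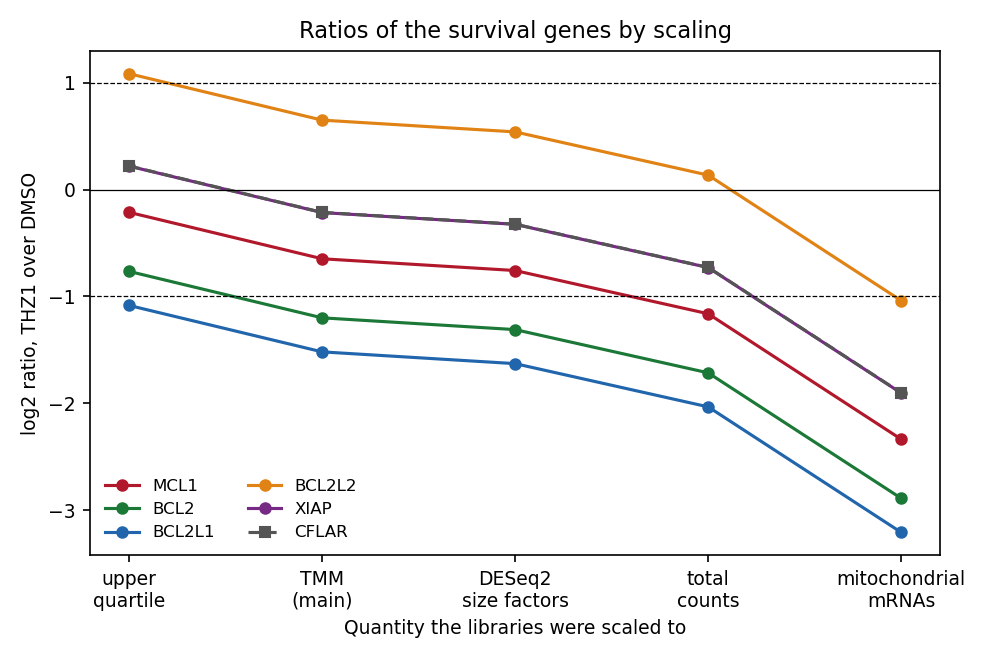
Log2 ratio of THZ1 over DMSO (y axis) of the 6 detected survival genes under 5 ways of scaling the libraries (x axis); dashed lines mark 2-fold. The lines run in parallel, with BCL2L1 lowest and BCL2L2 highest throughout, and XIAP and CFLAR lie on top of each other.

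Ratios between genes within a library do not depend on any scaling. Each of the 15 pairs among the 6 genes was compared in this way, with the exact conditional interval of the odds ratio. In 14 pairs the interval excluded 1. The same share was not computed for other genes. Deeply read genes give narrow intervals, so this number does not set the 6 genes apart. The 15 pairs also share 6 genes and are not independent. There were 4.63 MCL1 reads per BCL2L1 read in DMSO and 8.47 in THZ1, a change of 1.83-fold (1.61 to 2.08) in favour of MCL1. MCL1 also gained on BCL2, by 1.47-fold (1.25 to 1.73). Against BCL2L2 it lost, from 18.3 to 7.44 reads, a ratio of 0.407 (0.349 to 0.474). The widest change was between BCL2L1 and BCL2L2, from 3.95 to 0.878 reads of BCL2L1 per read of BCL2L2, or 0.222 (0.183 to 0.269) of the DMSO value.

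The decreases of BCL2L1 and BCL2 differed by 1.25-fold (1.02 to 1.52), just beyond counting error. XIAP and CFLAR formed the remaining pair. There were 1.84 XIAP reads per CFLAR read in DMSO and 1.83 in THZ1, a ratio of 0.999 with an interval of 0.900 to 1.11. Relative to XIAP, MCL1 was at 0.741 (0.687 to 0.800), BCL2 at 0.504 (0.426 to 0.596) and BCL2L1 at 0.405 (0.353 to 0.463) of the DMSO value. MCL1, BCL2 and BCL2L1 thus lost ground to both caspase inhibitor genes whatever the libraries are scaled to.

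**Figure D4:**
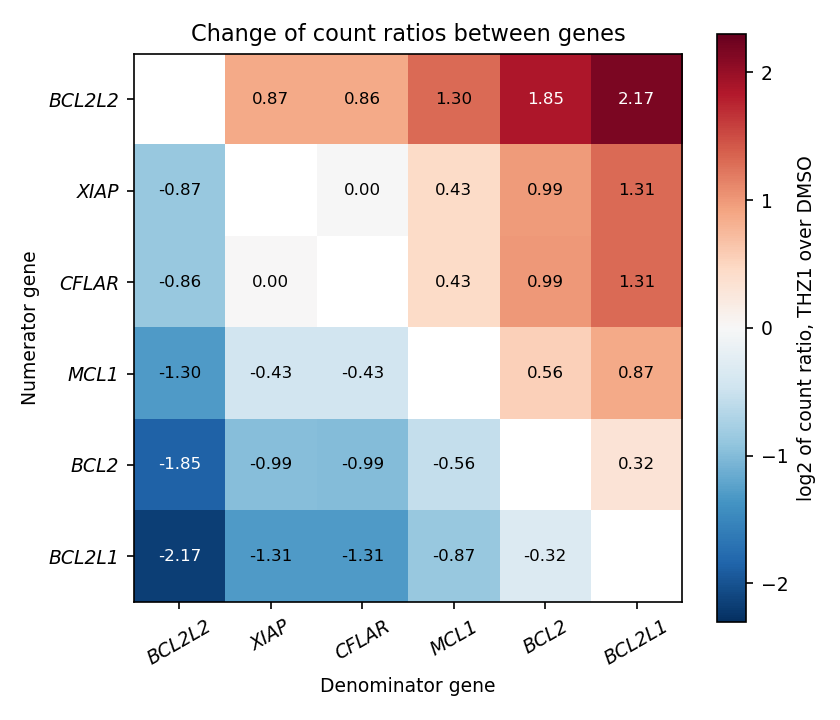
Log2 change, THZ1 over DMSO, of the count ratio of the gene in the row over the gene in the column, for the 6 detected survival genes. The rows are ordered from BCL2L2, which gained on every other gene, to BCL2L1, which lost to every other gene, and the XIAP and CFLAR cells are at 0.00.

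Among the BCL2-like transcripts, the shares of BCL2L1 and BCL2L2 shifted by more percentage points than that of MCL1. Of the reads of MCL1, BCL2, BCL2L1 and BCL2L2 together (8939 in DMSO and 3811 in THZ1), MCL1 took 72.4% (71.5 to 73.4) and 75.4% (74.0 to 76.7). BCL2L1 went from 15.7% (14.9 to 16.4) to 8.90% (8.01 to 9.84), and BCL2 from 7.93% (7.38 to 8.51) to 5.62% (4.91 to 6.39). BCL2L2 went from 3.96% (3.57 to 4.39) to 10.1% (9.19 to 11.1). These are exact Clopper-Pearson intervals. Per exonic length the shares were 72.3% and 75.6% for MCL1 and 20.6% and 11.8% for BCL2L1.

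The 7 genes differ in features that the choice of names did not use. AU-rich pentamers (ATTTA), which mark many short-lived mRNAs, numbered 10 in the 3′ untranslated region of the representative MCL1 transcript, or 3.55 per kb, beside a median of 1.78 per kb over tested coding genes. XIAP had 20 (2.94 per kb), BCL2 13 (2.46), BCL2L1 3 (2.00), CFLAR 23 (1.81), BCL2L2 5 (1.79) and BCL2A1 0 in its short region of 178 bases. BCL2L1, XIAP and CFLAR span 59538, 54256 and 60584 bases, above the median of 34617 bases over tested coding genes, and BCL2L2 spans 12970. Whether these features bear on the ratios was not tested.

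Among genes of related function, 48 in 8 lists were counted, of which 35 had enough reads. The rule called 8 of them lower and 1 higher, and left 26 uncalled, against the 21.3% lower and 9.7% higher among all tested genes. Their median was −0.39, beside −0.03 for all tested genes. The ratios above 0 named in the next paragraphs are all below 1.69 and so lie below 0 on the mitochondrial reference, and those between −0.43 and 0 lie above 0 with the upper quartile. BAD, BCL2L11, BCL2L12, FADD and HTRA2 share between 10.9% (BCL2L11) and 54.9% (FADD) of their exonic length with a gene on the other strand, so their values are uncertain in the same way as that of BCL2L1.

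Other survival genes showed one large decrease. BIRC3, which encodes the ubiquitin ligase cIAP2, had 6252 counts in DMSO and 718 in THZ1, a log2 ratio of −2.60 (−2.71 to −2.49). Its neighbour BIRC2, which encodes cIAP1 and lies beside it on chromosome 11, had 9873 and 4018 counts and −0.77 (−0.83 to −0.72). The count ratio of BIRC2 to BIRC3 rose from 1.58 to 5.596, or 3.54-fold (3.25 to 3.87). BIRC6 was at −0.39 and BIRC5, the gene of survivin, at 0.32, so 1 of 4 tested genes of this list was lower and XIAP (−0.22) lay between them. Of the remaining BCL2-like genes BCL2L12 was at −0.42 (131 and 68 counts) and BCL2L15 at −0.18 (69 and 42 counts), both with intervals that reached above 0, and BCL2L10 had 0 and 3 counts.

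Of the 3 genes listed as effectors (BAX, BAK1 and BOK), 2 were lower, BAK1 and BOK. BAK1, which MCL1 and BCL-XL bind, had 168 counts in DMSO and 11 in THZ1, a log2 ratio of −3.35 (−4.44 to −2.53). BOK was at −1.70 (259 and 55 counts) and BAX, which was not called, at −0.46 (326 and 165 counts). Against BAK1, MCL1 gained 6.77-fold (3.68 to 13.8) and BCL2L1 3.70-fold (1.98 to 7.63) in reads. BCL2 lost to BAX, at 0.597 (0.465 to 0.766) of its DMSO ratio. Reads were also summed over the 4 detected survival genes of the BCL2 family and over the 3 effectors. There were 11.9 survival reads per effector read in DMSO and 16.5 in THZ1, a change of 1.39-fold (1.19 to 1.63). The survival sum went from 8939 to 3811 reads and BAX from 326 to 165, so the sum did not gain on BAX. MCL1 made up 72.4% of the survival sum in DMSO and 75.4% in THZ1.

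Of 4 tested BH3-only genes, 1 was lower. This was BCL2L11, the gene of BIM, at −1.55 (158 and 37 counts), and BCL2L1 reads per BCL2L11 read were 8.86 in DMSO and 9.16 in THZ1, a ratio of 1.03 with a wide interval that included 1 (0.703 to 1.55). MCL1 gained on BCL2L11 by 1.89-fold (1.31 to 2.80), and for BCL2 the interval included 1 (1.29, 0.864 to 1.96). PMAIP1, which encodes the MCL1-selective protein NOXA, was at −0.26 (1579 and 913 counts), BAD at 0.14 and BID at 0.49. BCL2L1 lost to BAD, whose protein binds BCL-XL, from 9.09 to 2.87 reads per BAD read, a ratio of 0.316 (0.240 to 0.417). There were 4.10 MCL1 reads per PMAIP1 read in DMSO and 3.15 in THZ1, a ratio of 0.767 (0.699 to 0.842). BBC3, BIK, BMF and HRK had at most 8 counts, too few to compare.

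None of the 6 tested genes that control MCL1 protein turnover was called. The ubiquitin ligase gene HUWE1 was at 0.45 (16344 and 15463 counts), BTRC at −0.39 and MARCHF5 at 0.26, while the deubiquitinase gene USP9X was at −0.02. Of the XIAP antagonists DIABLO was at 0.67 (64 and 71 counts) and HTRA2 at −0.76 (186 and 76 counts), neither called, and XAF1 had 0 counts in both libraries. XIAP reads per DIABLO read were 42.8 in DMSO and 23.1 in THZ1, a ratio of 0.540 (0.377 to 0.772). DIABLO has overlapping gene models, which makes its value uncertain.

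Of 6 tested caspase and apoptosome genes, 1 was lower and 1 higher. CASP2 was at −1.55 (−1.67 to −1.43; 3205 and 761 counts), and CYCS, the cytochrome c gene, at 1.13 (1.06 to 1.20; 2900 and 4413 counts). CYCS was no longer called with total counts or on the mitochondrial reference. APAF1, which forms the apoptosome with cytochrome c, was at −0.67 (499 and 218 counts), within 2-fold. XIAP reads per read of CASP9, the initiator caspase that XIAP binds, were 32.6 in DMSO and 25.6 in THZ1, a ratio of 0.786 with an interval that included 1 (0.557 to 1.11).

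The list for the death receptor complex and its regulators had 8 tested genes, of which 3 were lower. TNFRSF1A, a receptor for tumour necrosis factor, was at −4.06 (1332 and 55 counts), the kinase gene RIPK1 at −2.65 (1304 and 144 counts) and the adaptor gene FADD at −3.21 (−5.74 to −1.78; 46 and 3 counts). FAS was at −0.98 (488 and 171 counts), just within 2-fold, and called with total counts and with DESeq2 size factors. CASP8, which cFLIP regulates, was at −0.33 (1283 and 707 counts), and reads of CFLAR per CASP8 read were 1.16 in DMSO and 1.27 in THZ1, a ratio of 1.09 with an interval that included 1 (0.959 to 1.23). Against FADD, CFLAR gained 9.18-fold, with a wide interval (2.94 to 46.3) that rests on the 3 FADD reads in THZ1. CFLAR and CASP8 lie in the same cluster on chromosome 2 with CASP10, which had 3 and 0 counts.

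**Figure D5:**
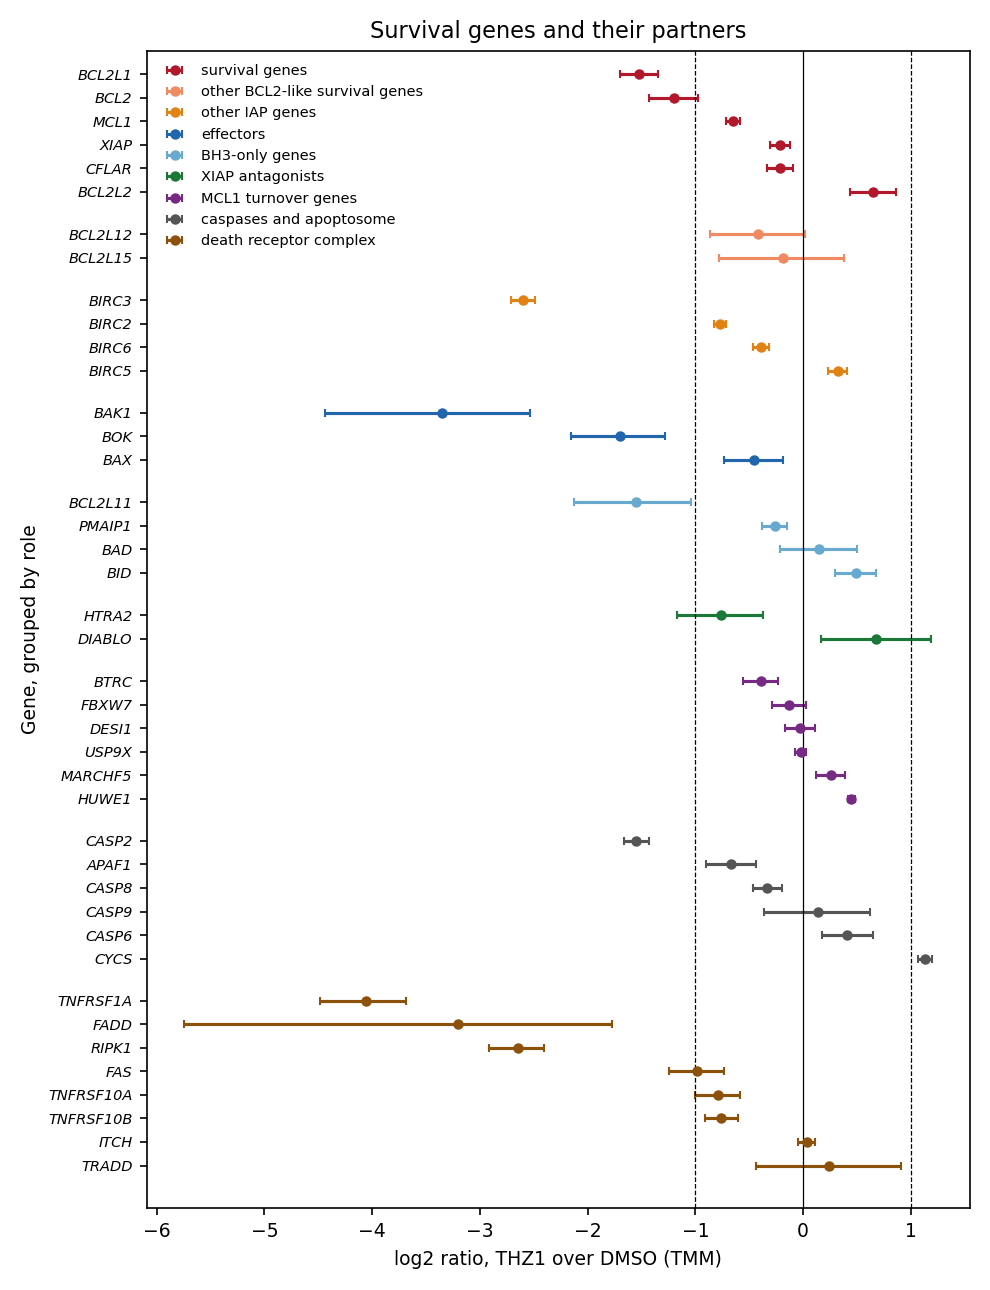
Log2 ratio of THZ1 over DMSO (x axis, TMM) with 95% counting intervals for each tested gene, grouped by role; dashed lines mark 2-fold. Genes past the lower line occur among the survival genes (BCL2L1, BCL2), other IAP genes (BIRC3), effectors, BH3-only genes, caspases (CASP2) and death receptor genes, and CYCS is the single gene past the upper line.

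Over the 2 libraries, the coding gene most like each survival gene in DMSO level per length and in log2 ratio was taken from 9658 genes that reached 100 counts in either library. For BCL2L1 this was KAT7, a histone acetyltransferase gene (−1.53; 78.8 TPM in DMSO), at a distance of 0.04 on the log2 scales. For MCL1 it was TAF7, a gene of the general transcription factor TFIID (−0.51; 278 TPM), at 0.14. For BCL2 it was YDJC (−1.17), for BCL2L2 ISYNA1 (0.63), for XIAP the DNA repair gene DCLRE1C (−0.21) and for CFLAR the kinase gene MKNK2 (−0.21). With 2 libraries such likeness means only a similar level and ratio.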

How the data were processed

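RNA-seq counts of 2 libraries (DMSO and THZ1, 1 each) were grouped by treatment label. The files the authors deposited hold whole, unscaled counts per gene. Trimmomatic 0.38, HISAT2 2.1.0, featureCounts 1.6.0 and GRCh38 are named per the submitters' processing notes. The annotation release, the strand setting and how multi-mapped reads were handled were not given in the sources used here. Of 58884 IDs, 58611 were in GENCODE 29 and 58472 could be given a symbol. TMM factors (edgeR 4.0.16, R 4.3.3), computed on the 12457 genes that reached 30 counts in either library, gave effective library sizes of 22049153 and 15320940. Log2 ratios had 0.5 added to each count, and their intervals were derived from the exact (Clopper-Pearson) binomial interval for the fraction of a gene's reads found in THZ1. No molecular identifiers are named in the labels, so reads may be copies of 1 molecule, and intervals and floors (3 counts) cover counting error only. Pairs of genes were compared by the exact conditional interval of the odds ratio (scipy 1.17.1), which carries no scaling. The calls were tested on simulated data with counting error alone, which cannot check replicate error or the choice of scaling.

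All 7 genes are described. Each list names up to 3 genes furthest from 0 among those with 100 or more counts; BCL2-like, IAP, effector and BH3-only genes may all be named. DIABLO, FADD, CASP8, CASP9, CASP10, USP9X, XAF1, the neighbouring genes and the pairs of survival genes with partners were added with their values known. Some items of these lists are not reported here and were left out of every list count. The members and lists were chosen with earlier results of these data known. Alternatives were other scalings (DESeq2 1.42.0 size factors among them), count minimums of 1 and 100, 5 counts added, coding genes only, a stricter interval rule, thinning, and, added after seeing the data, TMM factors from all genes.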

Additional observations from a re-analysis of the deposited data

How the results depend on the processing

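Each scaling moves all ratios together. With total counts 14 of the 35 tested genes of the related lists were lower and 0 higher. Of all tested genes 34.2% were then lower and 2.95% higher. On the mitochondrial mRNAs 34 were lower and 0 higher, as were 6 and 0 of the survival genes. The shares of all tested genes were then 80.3% lower and 0.706% higher. With the upper quartile 1 survival gene was lower and 1 higher. Of the related genes 8 were lower and 2 higher, when 14.1% of all tested genes were lower and 24.4% higher. With the interval bound itself at least 2-fold, 1 survival gene was lower (BCL2L1), and 5 of the 15 pairs passed. The share of all tested genes that pass this stricter rule was not computed, so these counts cannot be set beside a background. The other alternatives kept each of these counts within 1.5 times its value, and BCL2L1 was called in all of them. No alternative turned the direction of BCL2L1 or BCL2. No paired analysis was possible because each group has 1 library, and depth limits BCL2A1, BCL2L10, BBC3, BIK, BMF and HRK.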

Other observations

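The gene just past the 3′ end of MCL1 moved the opposite way to MCL1. ADAMTSL4-AS1 (ENSG00000203804, chromosome 1 from 150560202 to 150574552) is a non-coding gene on the same strand whose annotated start overlaps the end of MCL1 by 2 bases. It had 9 counts in DMSO and 134 in THZ1, and the log2 ratio was 4.35 (3.45 to 5.58) on TMM, 3.83 on total counts and 2.66 on the mitochondrial reference. Per 100 MCL1 reads there were 0.139 of its reads in DMSO and 4.67 in THZ1, a 33.6-fold change (17.1 to 75.1). RN7SL600P, a repeat-derived gene inside its span and therefore uncertain, had 3 and 38 counts, and RN7SL473P 4 and 24. It was singled out after its values were seen, and whether these reads start at its own promoter or at that of MCL1 was not tested.

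Of the 62 tested non-coding genes that start within 1 kb past the end of another tested gene on the same strand, 43.5% were higher by the rule and their median was 0.61. This compares with 24.1% of all 1576 tested non-coding genes, whose median was 0.26, and 9.7% of all tested genes. As a description of these 2 libraries it has no replicate check. The 62 include ADAMTSL4-AS1, which was singled out after its values were seen. A gene was tested if it reached 30 counts in either library. Genes such as ADAMTSL4-AS1, with 9 counts in DMSO, thus entered only through THZ1, where they were high. This favours calls of higher in each of these sets. None of the other survival genes had a tested same-strand gene within 1 kb of its end, and PABPN1, which begins 9530 bases past the end of BCL2L2 on the same strand, had a ratio of 0.30 (367 and 313 counts).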
